A study of Mus musculus with 12 samples.

Results

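The polyamine metabolism genes are 10 named rows among the 24421 genes of the deposited count table: Odc1, Srm, Sms and Amd1 of synthesis, Oaz1, Oaz2 and Azin1 of the antizyme system, and Sat1, Smox and Paox of breakdown. They are given by name, and the rule uses no measured value, although the set was proposed with earlier results of these data known. PolyA RNA was sequenced from mouse E14 embryonic stem cells of wild-type genotype that carried dCas_Alkbh5, an RNA-guided Cas protein fused to Alkbh5, a demethylase that takes the m6A modification off RNA. The cells grew on gelatin in serum with LIF, received 1 µg of a guide RNA plasmid, were selected in 8 µg/mL blasticidin for 3 days and were held for 5 days in 200 nM INK128. INK128 inhibits the growth kinase mTOR, which slows the division of these cells in a state called paused pluripotency. The 12 libraries form 3 groups of 4, with the non-targeting guide (NT), with Mycn-gRNA2 or with Mycn-gRNA3, and the comparisons ask how transcripts differ when the demethylase is directed at the transcript of Mycn, a growth-promoting transcription factor of the MYC family. All 3 groups share the fusion, the selection and the inhibitor, and the control is a single guide. The labels give neither the promoter that drives the fusion nor whether the cells are 1 clone, and nothing in them shows that the replicates came from separate cultures. The p-values therefore measure only the spread between these libraries, which may be technical.

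Polyamines are small positively charged molecules that bind RNA and DNA and are needed for translation and growth. Ornithine decarboxylase, from Odc1, makes putrescine from ornithine. Spermidine synthase (Srm) and spermine synthase (Sms) then add aminopropyl groups in turn, supplied by S-adenosylmethionine decarboxylase (Amd1). Antizymes (Oaz1, Oaz2) bind ornithine decarboxylase and send it to the proteasome, and the antizyme inhibitor Azin1 takes antizyme away from it. Sat1 acetylates spermidine and spermine, Paox oxidizes the acetylated forms, and Smox oxidizes spermine directly. Odc1 is a textbook target of MYC proteins, which bind DNA at the E-box CACGTG, and the E-boxes known for it lie in the first intron of the gene.

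The stretch upstream of the RefSeq start is shown for the highest member, Odc1, and for the X-linked Sms, which has 2 RefSeq starts, and Sat1, whose levels moved in opposite directions. A RefSeq (GRCm38.p6) promoter was available for 8 of the 10 members, all but Srm and Azin1. Each line gives the 250 bases before the start, 5′ to 3′ on the gene's strand, with capitals marking CACGTG or its variant CACGCG on either strand.
Odc1, chr12:17544623-17544872, plus strand: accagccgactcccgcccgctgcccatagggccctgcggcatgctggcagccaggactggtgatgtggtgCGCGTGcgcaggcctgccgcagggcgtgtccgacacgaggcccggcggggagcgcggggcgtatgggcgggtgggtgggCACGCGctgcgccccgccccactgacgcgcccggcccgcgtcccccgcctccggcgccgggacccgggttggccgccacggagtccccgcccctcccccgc
Sms upstream start, chrX:157492288-157492537, minus strand: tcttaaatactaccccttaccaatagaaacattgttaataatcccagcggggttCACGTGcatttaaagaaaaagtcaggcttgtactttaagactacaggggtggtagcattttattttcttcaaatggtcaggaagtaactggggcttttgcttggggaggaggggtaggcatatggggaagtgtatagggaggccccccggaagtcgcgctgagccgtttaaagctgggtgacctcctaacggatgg
Sms inner start, chrX:157491369-157491618, minus strand: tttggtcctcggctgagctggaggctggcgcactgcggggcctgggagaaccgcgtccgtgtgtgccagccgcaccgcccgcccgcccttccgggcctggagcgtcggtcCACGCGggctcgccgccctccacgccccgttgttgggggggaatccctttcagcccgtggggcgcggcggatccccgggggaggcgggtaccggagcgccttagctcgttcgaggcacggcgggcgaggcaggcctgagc
Sat1, chrX:155216450-155216699, minus strand: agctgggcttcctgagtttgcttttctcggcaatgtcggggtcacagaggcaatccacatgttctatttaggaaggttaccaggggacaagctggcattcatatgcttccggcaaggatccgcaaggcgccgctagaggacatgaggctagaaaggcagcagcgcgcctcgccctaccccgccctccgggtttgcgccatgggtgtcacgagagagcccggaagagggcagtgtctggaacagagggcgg
The stretch before the upstream start of Sms holds CACGTG at position −196, counted back from the start, on chromosome X from 157492478 to 157492483. That before the inner start holds no CACGTG and 1 CACGCG, at −140. The Odc1 stretch holds CACGCG at −101 and, on the other strand, at −180, with no CACGTG. Neither motif was found in the Sat1 stretch, and no matches overlapped. Among the members not shown, Oaz1 held CACGCG at −212. Smox, which was called higher, held neither motif, nor did Paox, Oaz2 or Amd1. CACGTG occurred in 6.02% and CACGCG in 7.62% of all 32851 stretches of this length in the promoter table. The upstream start of Sms lies outside the gene model that was counted, which begins at 157492046 on the minus strand, and the inner start at 157491368 lies inside it. A match describes these letters, not binding.

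Depth ran from 17248564 to 33819855 endogenous reads per library. Mycn, the targeted gene, was higher in all 8 guide libraries (205 to 292 CPM) than in any NT library (136 to 146 CPM). CPM are reads per 1000000 endogenous reads after scaling by TMM, edgeR's trimmed mean of M-values, and give levels relative to the transcriptome. Endogenous reads per read of the added ERCC RNAs, synthetic RNAs spiked into RNA from 200000 cells per sample, were 65.5 ± 4.66 in NT (SD, n = 4) and 86.1 ± 9.84 with the guides (SD, n = 8), a log2 difference of 0.39 (exact two-sided permutation p = 0.00404). The permutation took all libraries as independent, although replicate numbers were taken as pairing the guide groups, as described under processing. A test within replicate numbers, given in the last paragraph, could not reach 0.05 with 4 pairs. Levels per ERCC read carry the shift of 0.39, and the ERCC RNAs were added after extraction. Any difference in RNA yield or cell counting therefore enters these levels. The 4 Y-linked genes checked, Ddx3y, Eif2s3y, Kdm5d and Uty, summed to 0.045 to 0.18 CPM in the NT libraries and to 32.4 to 83.7 CPM in the guide libraries, which goes against the label of the NT libraries as E14, a male line. Pluripotency genes were high throughout, and the sum of Pou5f1, Sox2, Nanog, Zfp42, Esrrb and Klf4 was 3529 to 3911 CPM in NT and 2781 to 3400 CPM with the guides. The sum of 5 fibroblast markers was 2.26 to 3.09 CPM in NT and 3.83 to 5.83 CPM with the guides. Of these, 4 had a higher mean with each guide than in NT and Pdgfrb a lower one. The sum of 6 primitive endoderm markers was 17.6 to 27.9 CPM in NT, 24.0 to 40.9 CPM with Mycn-gRNA2 and 23.4 to 26.3 CPM with Mycn-gRNA3, which lies within the NT range. The 40.9 CPM was Mycn-gRNA2 replicate 1, and replicates 2, 3 and 4 of that group had 26.5, 29.0 and 24.0 CPM. Of the 6 endoderm markers, 5 had a higher mean with each guide, Dab2 by the most CPM at 14.5 and 11.7 CPM against 6.84 CPM in NT. Single libraries ran from 10.3 to 24.5 CPM for Dab2 with Mycn-gRNA2. Sox7 had a lower mean, at 8.48 and 7.12 CPM against 12.7 CPM. The Y-linked, pluripotency and fibroblast sums did not overlap between NT and either guide, and their part in the results below was not tested. Because the Y-linked difference sets every NT library apart from every guide library, it cannot be told apart from the guides in these data. Words such as rose and fell below describe differences between these groups only. In such bulk libraries, fewer cells of a type and less RNA per cell cannot be told apart.

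Of the 10 members, 8 passed the filter on low counts, each with at least 219 reads in every library. Relative to the transcriptome, Odc1, Srm, Sms and Smox rose and Sat1 fell with both guides against NT, at an adjusted p under 0.05 in edgeR's quasi-likelihood test. These 4 higher and 1 lower of 8 stand beside 14.9% of all 14497 genes tested called higher and 13.0% called lower. The member median was 0.37 on the log2 scale, against −0.003 over all genes. Per ERCC read 7 of the 8 rose and 0 fell, all but Sat1, beside 56.4% and 0.931% of all genes, and the member median was 0.77 against 0.39 over all genes. Most genes were called higher on that scale, so the members are described first relative to the transcriptome.

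In the NT cells the members spanned a wide range of levels per length (RPKM, TMM-scaled reads per kilobase of gene model and CPM unit). Odc1 led with 208.6 ± 18.9 RPKM (SD, n = 4 here and for the other members), followed by Srm with 64.6 ± 2.46 and Azin1 with 29.3 ± 1.82. Oaz2 had 21.2 ± 1.98 RPKM and Sat1 18.2 ± 1.30, and the ranges of these 2 over the NT libraries overlapped. Sms had 14.1 ± 1.71 RPKM and Paox 13.2 ± 0.726, also with overlapping ranges. Smox, the oxidase of spermine, was the lowest of the 8 at 4.79 ± 0.477 RPKM. The order put the enzyme at the head of synthesis far above the 3 breakdown enzymes.

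Odc1, which makes putrescine, lies on chromosome 12 at 17544873 to 17551502 (mm10, plus strand, 12 exons). It stood at 556, 586, 498 and 485 CPM in NT replicates 1 to 4, at 732, 865, 846 and 781 CPM with Mycn-gRNA2 and at 682, 824, 859 and 803 CPM with Mycn-gRNA3. All 8 guide libraries lay above every NT library, the nearest being Mycn-gRNA3 replicate 1. The log2 fold change relative to the transcriptome was 0.59 with both guides (SE 0.0771, edgeR adjusted p = 1.11e-04), 0.60 with Mycn-gRNA2 and 0.58 with Mycn-gRNA3. Odc1 had 34859 ± 5662 reads per 1000000 ERCC reads in NT (SD, n = 4 in each group), against 65102 ± 8786 for Mycn-gRNA2 and 72287 ± 8177 for Mycn-gRNA3. On this scale it rose by 0.98 with both guides (SE 0.132, edgeR adjusted p = 3.07e-07), again with no overlap between guide and NT libraries. Endogenous reads per ERCC read were themselves above the highest NT library (72.1) in all guide libraries but Mycn-gRNA2 replicate 2 (65.6). The share of all genes without overlap was not counted on either scale, so none stands beside Odc1, the members below or the wider pathway genes.

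Srm, which makes spermidine from putrescine, lies on chromosome 4 at 148591513 to 148594619 (plus strand, 7 exons). Its NT libraries were close together at 82.1, 90.0, 84.9 and 86.0 CPM. It had 110, 165, 165 and 154 CPM with Mycn-gRNA2 and 130, 159, 173 and 163 CPM with Mycn-gRNA3. Replicate 1 was the lowest library of each guide group, and all 8 were still above every NT library. Srm rose by a relative log2 fold change of 0.83 with the 2 guides together (SE 0.106, edgeR adjusted p = 9.28e-05), 0.79 with Mycn-gRNA2 and 0.87 with Mycn-gRNA3. Per ERCC read Srm rose by 1.22 (SE 0.140, edgeR adjusted p = 1.56e-08).

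Sms, which makes spermine from spermidine, lies on chromosome X at 157443954 to 157492046 (minus strand, 11 exons). It stood at 49.3, 48.8, 52.6 and 39.2 CPM in NT, at 82.1, 86.1, 99.4 and 86.6 CPM with Mycn-gRNA2 and at 73.4, 92.6, 92.6 and 86.2 CPM with Mycn-gRNA3. The groups did not overlap, and the lowest guide library was again Mycn-gRNA3 replicate 1. Against the transcriptome, the log2 fold change was 0.88 with both guides (SE 0.0903, edgeR adjusted p = 1.78e-05), 0.90 with Mycn-gRNA2 and 0.86 with Mycn-gRNA3. Per ERCC read it was 1.27 (SE 0.144, edgeR adjusted p = 1.15e-08). Since Sms and Sat1 are X-linked and the Y genes differed between the groups, the 506 tested genes of chromosome X were counted as well. Their median relative log2 fold change was −0.034, with 16.6% called higher and 14.8% lower, close to the shares over all genes. The tally describes chromosome X as a whole. It cannot separate the Y-linked difference from the guides for Sms or Sat1.

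**Figure D1:**
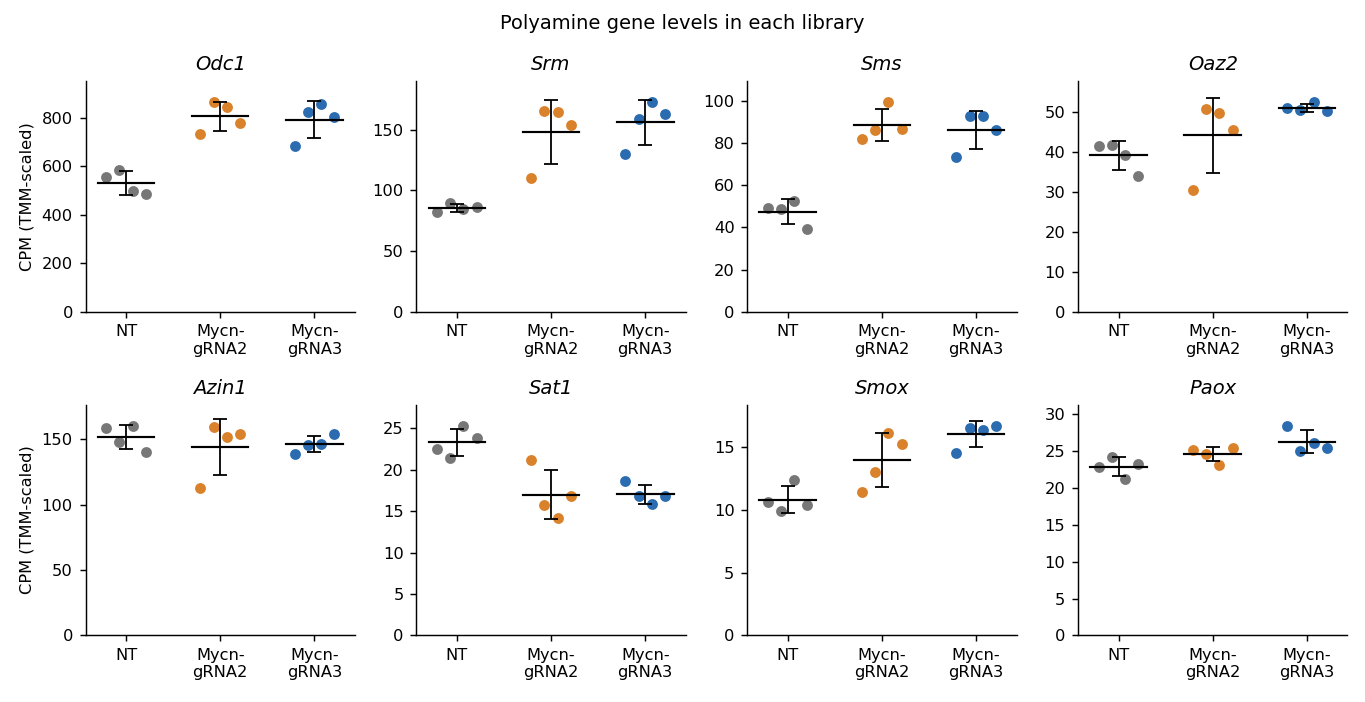
Level of each tested polyamine gene in every library (y axis, TMM-scaled CPM from 0; points are libraries in replicate order from left to right; bars are the mean ± SD of 4). Odc1, Srm and Sms are higher in all 8 guide libraries than in any NT library and Sat1 is lower in all 8, whereas the groups overlap for Azin1. The share of all genes that separate in this way was not counted. With both guides 14.9% of all genes were called higher and 13.0% lower on this scale.

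The remaining synthesis gene, Amd1, had 0 reads in all 12 libraries. A count of 0 among the 295767746 endogenous reads of the table allows up to 0.0101 CPM (3 reads, counting error only), a limit on reads assigned to this row. In the table the model of Amd1 on chromosome 10, from 40287458 to 40302188, shares 99.7% of its bases with a model named Amd2 on the same strand, and Amd2 also had 0 reads. The row of Oaz1, the major antizyme, was also nearly empty. It had 39 reads over the 12 libraries, 1 to 6 in each, and shares 89.5% of its bases with Oaz1-ps, which had 0. Among gene models of at least 1000 bases that share 80% or more of their length with another gene on the same strand, 327 of 348 (94.0%) had under 50 reads in all, against 4215 of 16493 models (25.6%) with no overlap. These limits were chosen after the rows had been seen. The treatment of reads that fall on more than 1 gene is among the settings not given in the sources used here, and the part of the overlap in the low counts of Amd1 and Oaz1 was not tested. Their rows are given no level or fold change here. None of the other 8 members shares a counted base with another gene.

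**Figure D2:**
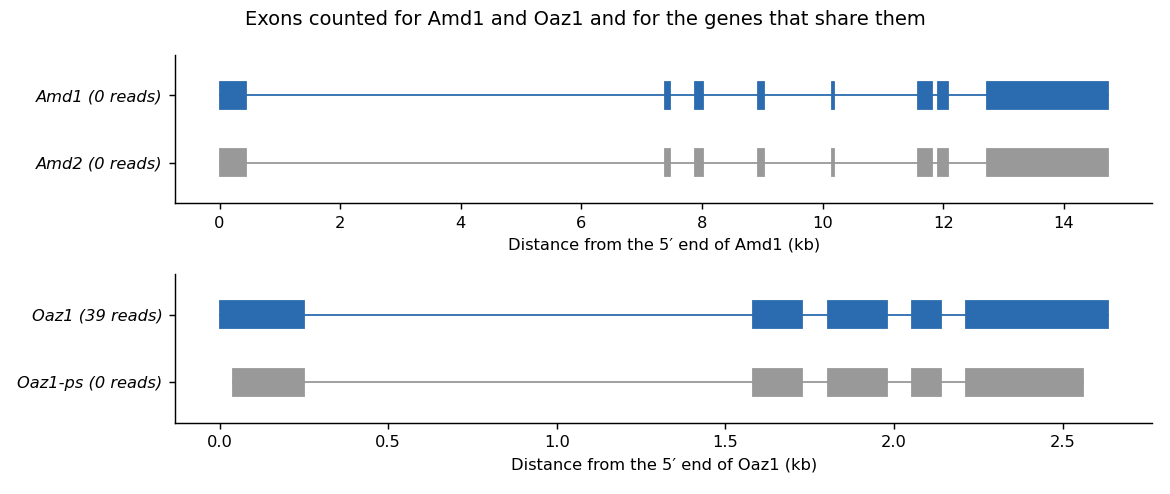
Exons counted for Amd1 and Oaz1 (blue) above those of the gene model that shares them (grey), by distance from the 5′ end in kilobases, with total reads over the 12 libraries in the row names. Every exon is shared in whole or in part, and the rows hold 0 and 39 reads.

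In the antizyme system, neither tested gene passed with both guides relative to the transcriptome, and Oaz2 passed with Mycn-gRNA3. Oaz2, an antizyme on chromosome 9 at 65676548 to 65690300 (plus strand, 5 exons), stood at 41.5, 41.8, 39.2 and 33.9 CPM in NT. It had 30.4, 50.9, 49.6 and 45.6 CPM with Mycn-gRNA2 and 51.0, 50.6, 52.5 and 50.1 CPM with Mycn-gRNA3. Of the 8 guide libraries 7 lay above every NT library, and Mycn-gRNA2 replicate 1 lay below every one. Its log2 fold change relative to the transcriptome was 0.28 with both guides (SE 0.113, edgeR adjusted p = 0.0810) and 0.17 with Mycn-gRNA2 (SE 0.129, edgeR adjusted p = 0.403). With Mycn-gRNA3 Oaz2 rose by 0.38 (SE 0.128, edgeR adjusted p = 0.0393). That call was lost in 8 of the 12 fits that left out 1 library, each of the 4 NT and the 4 Mycn-gRNA3 libraries, with an adjusted p of up to 0.119. Without Mycn-gRNA2 replicate 1 the value for both guides was 0.35 (edgeR adjusted p = 3.26e-04), past the threshold. Per ERCC read Oaz2 rose by 0.67 with both guides (SE 0.146, edgeR adjusted p = 3.93e-04).

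Azin1, whose product protects ornithine decarboxylase from antizyme, lies on chromosome 15 at 38487430 to 38519266 (minus strand, 13 exons). It had 158, 148, 161 and 140 CPM in NT, 113, 160, 152 and 154 CPM with Mycn-gRNA2 and 139, 145, 147 and 154 CPM with Mycn-gRNA3. The groups overlapped, and the low library was again Mycn-gRNA2 replicate 1. The relative log2 fold change was −0.063 (SE 0.0817, edgeR adjusted p = 0.599). Per ERCC read Azin1 rose by 0.33 (SE 0.128, edgeR adjusted p = 0.0272), less than the 0.39 of the median gene. This call was lost without NT replicate 1 or 4, or without Mycn-gRNA2 replicate 3 or 4, with an adjusted p of up to 0.117.

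Among the breakdown genes, Sat1 was the only member that fell relative to the transcriptome. Sat1, the acetyltransferase of spermidine and spermine, lies on chromosome X at 155213126 to 155216449 (minus strand, 7 exons). It had 22.6, 21.5, 25.3 and 23.9 CPM in NT, 21.2, 15.7, 14.2 and 16.8 CPM with Mycn-gRNA2 and 18.7, 16.8, 15.8 and 16.8 CPM with Mycn-gRNA3. All 8 guide libraries were below every NT library, with Mycn-gRNA2 replicate 1 just below. The relative log2 fold change was −0.46 with both guides (SE 0.0941, edgeR adjusted p = 0.00296), −0.46 with Mycn-gRNA2 and −0.45 with Mycn-gRNA3. Per ERCC read it was −0.052 (SE 0.148, edgeR adjusted p = 0.767). On that scale NT libraries had 1346 to 1663 reads per 1000000 ERCC reads and guide libraries 1004 to 1780, so the groups overlapped on both sides. The fall of Sat1 is therefore a fall against the other transcripts, and none was detected per ERCC read.

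Smox, the spermine oxidase, lies on chromosome 2 at 131491862 to 131525183 (plus strand, 8 exons). It stood at 10.7, 9.91, 12.4 and 10.4 CPM in NT, at 11.5, 13.0, 16.2 and 15.3 CPM with Mycn-gRNA2 and at 14.6, 16.6, 16.4 and 16.7 CPM with Mycn-gRNA3. Of the guide libraries 7 lay above every NT library, and Mycn-gRNA2 replicate 1 lay within the NT range. The relative log2 fold change was 0.47 with both guides (SE 0.0995, edgeR adjusted p = 0.00347) and 0.57 with Mycn-gRNA3 (SE 0.112, edgeR adjusted p = 0.00249). With Mycn-gRNA2 it was 0.37 (SE 0.114, edgeR adjusted p = 0.0383). This last call was lost without NT replicate 1, 2 or 4, without Mycn-gRNA2 replicate 3 or 4 and without Mycn-gRNA3 replicate 4, with an adjusted p of up to 0.128. Per ERCC read Smox rose by 0.87 with both guides (SE 0.159, edgeR adjusted p = 4.55e-05), with all 8 guide libraries above NT.

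Paox, which oxidizes acetylated polyamines, lies on chromosome 7 at 140125685 to 140134334 (plus strand, 7 exons). It had 22.8, 24.3, 21.2 and 23.3 CPM in NT, 25.1, 24.7, 23.2 and 25.4 CPM with Mycn-gRNA2 and 28.4, 25.0, 26.2 and 25.5 CPM with Mycn-gRNA3. The guide libraries were slightly higher, 7 of 8 above every NT library. The relative log2 fold change of 0.15 did not pass the test (SE 0.0617, edgeR adjusted p = 0.0860). Per ERCC read Paox rose by 0.55 (SE 0.144, edgeR adjusted p = 0.00229).

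The 2 guides were also compared with NT one at a time, with the same 4 NT libraries in both comparisons. Relative to the transcriptome, 4 members were called higher and 1 lower with Mycn-gRNA2, beside 10.1% and 7.06% of all genes. With Mycn-gRNA3, 5 were called higher and 1 lower, beside 14.8% and 12.2%. Odc1, Srm, Sms and Smox were called higher and Sat1 lower with each guide, and Oaz2 joined them with Mycn-gRNA3. Per ERCC read 5 members rose and 0 fell with Mycn-gRNA2, beside 26.3% and 0.517%, and 7 rose and 0 fell with Mycn-gRNA3, beside 60.7% and 0.504%. The 2 that made the difference were Azin1, at 0.24 (edgeR adjusted p = 0.204) and 0.43 (edgeR adjusted p = 0.0126), and Paox, at 0.41 (edgeR adjusted p = 0.0537) and 0.68 (edgeR adjusted p = 8.63e-04). The Oaz2 call with Mycn-gRNA2 per ERCC read (edgeR adjusted p = 0.0313) was lost without NT replicate 1, 3 or 4 and without Mycn-gRNA2 replicate 3 or 4, with an adjusted p of up to 0.128. The Azin1 call with Mycn-gRNA3 was lost without NT replicate 4 (edgeR adjusted p = 0.0569). The share of all genes called higher with Mycn-gRNA2 per ERCC read itself ran from 12.4% without NT replicate 1 to 53.6% without Mycn-gRNA2 replicate 2.

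**Figure D3:**
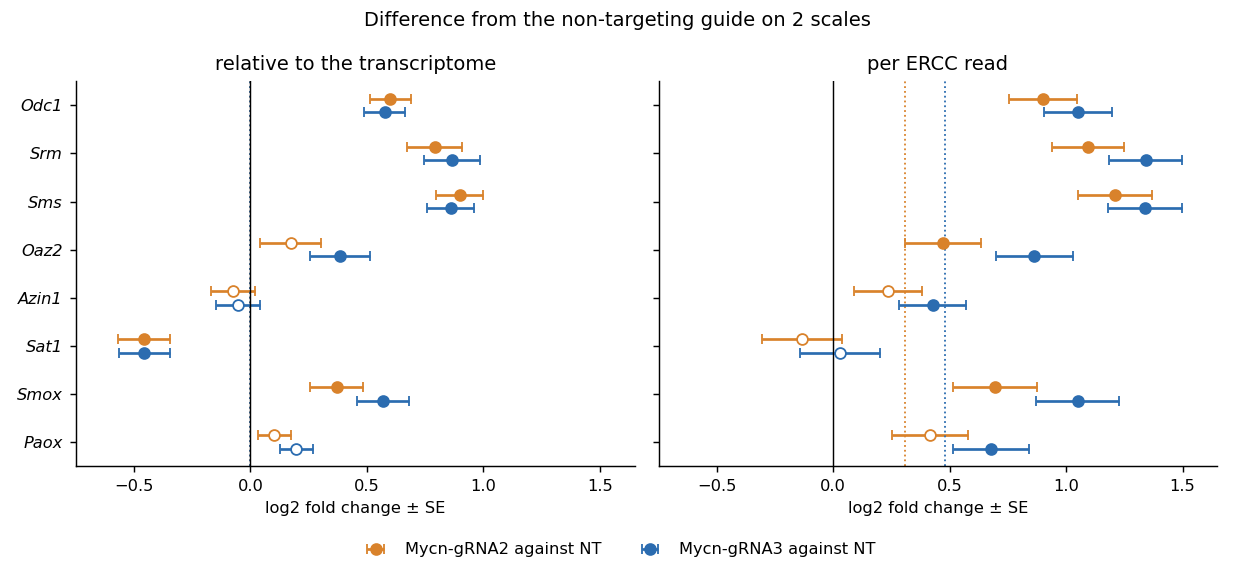
Log2 fold change ± SE of each member with Mycn-gRNA2 (orange) or Mycn-gRNA3 (blue) against NT, relative to the transcriptome (left) and per ERCC read (right). Filled points passed an adjusted p of 0.05, open points did not, and dotted lines mark the median over all genes for each guide, 0.31 and 0.48 on the right. Sat1 lies below 0 on the left and near 0 on the right.

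The direct comparison of Mycn-gRNA3 with Mycn-gRNA2 called 0 of the 8 members on either scale. Of all genes, 0% were called higher and 0% lower relative to the transcriptome, and 0.00690% (1 gene) higher and 0% lower per ERCC read. In edgeR 0 members had an unadjusted p under 0.05 relative to the transcriptome and 1, Oaz2, per ERCC read. DESeq2 also called 0 on each scale, with 0 and 2 members at an unadjusted p under 0.05. The largest relative differences were 0.21 for Oaz2 (SE 0.128, edgeR adjusted p = 0.569) and 0.20 for Smox (SE 0.111, edgeR adjusted p = 0.556), and those of Odc1, Srm, Sms, Sat1 and Azin1 lay between −0.038 and 0.074. Without Mycn-gRNA2 replicate 4, Oaz2 and Smox were called higher with Mycn-gRNA3 per ERCC read (edgeR adjusted p = 0.0343 and 0.0488), beside 13.6% of all genes (1983) called higher in that fit.

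Replicates 1 and 2 and replicates 3 and 4 gave different sizes. With replicates 3 and 4 alone, the relative log2 fold changes were 0.74 for Odc1, 0.94 for Srm, 0.99 for Sms, 0.50 for Smox, 0.43 for Oaz2 and −0.63 for Sat1, all past the threshold (edgeR adjusted p of up to 4.30e-04). With replicates 1 and 2 alone they were 0.45, 0.72, 0.77, 0.43, 0.13 and −0.28 in the same order, and only Sms passed (edgeR adjusted p = 0.0344). Each of the 6 kept its sign in both subsets. Over all genes, 151 were called higher and 27 lower with replicates 1 and 2, and 3324 and 3061 with replicates 3 and 4. With any single library left out, the values ranged from 0.55 to 0.64 for Odc1, from 0.80 to 0.89 for Srm, from 0.80 to 0.93 for Sms and from −0.52 to −0.41 for Sat1, and the calls of these 4 and of Smox with both guides were not lost.

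**Figure D4:**
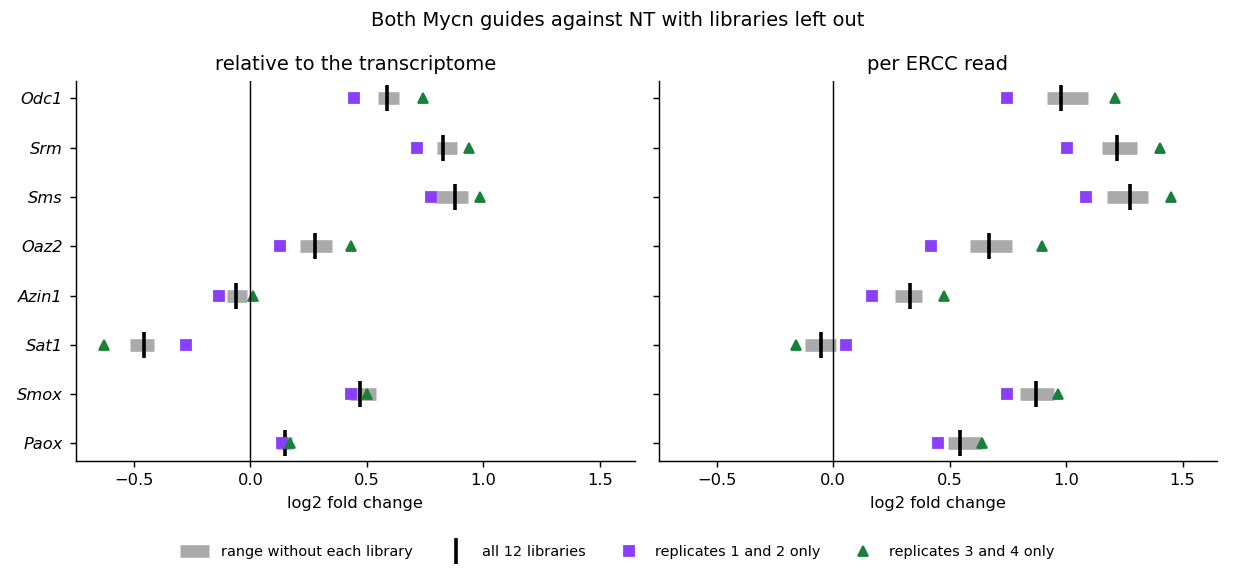
Log2 fold change of both Mycn guides against NT for each member with all 12 libraries (black bar), over the 12 fits without 1 library (grey range), with replicates 1 and 2 only (purple squares) and with replicates 3 and 4 only (green triangles), on both scales. Odc1, Srm and Sms stay above 0 in every fit shown, and the green triangles lie farther from 0 than the purple squares for all members but Azin1 on the left.

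A ratio of reads of 2 genes in 1 library needs no scaling. Odc1 had 24.7, 27.3, 19.7 and 20.3 reads per read of Sat1 in NT, 34.6, 55.0, 59.5 and 46.4 with Mycn-gRNA2 and 36.5, 49.0, 54.3 and 47.9 with Mycn-gRNA3. Every guide library was above every NT library. This follows from Odc1 being higher and Sat1 lower in CPM in all 8 guide libraries, so it adds no separate result. Replicate 1 was the lowest of each guide group. Within synthesis, Odc1 had 5.63 to 6.78 reads per read of Srm in NT and 4.92 to 6.66 in the guide libraries, of which 7 of 8 lay below every NT library, all but Mycn-gRNA2 replicate 1. Srm had 1.61 to 2.20 reads per read of Sms in NT and 1.34 to 1.92 in the guide libraries, with overlap. These are ratios of reads, not of levels per length, and were not tested.

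The wider pathway was followed in 5 lists with 36 genes, of which 26 were tested. Relative to the transcriptome 4 (15.4%) rose and 0 fell with both guides, close to the 14.9% of all genes called higher, and the median was 0.08, beside −0.003 over all genes, against 0.37 for the members. Per ERCC read 19 (73.1%) rose and 0 fell, beside 56.4% of all genes, with a median of 0.47 beside 0.39. The counts of the single lists below, 16.7%, 22.2%, 0% and 16.7% of the tested genes of the supply, salvage, hypusine and transport lists, stand beside the same 14.9%. In the list for the supply of ornithine, which also holds Azin2, a paralog of Azin1, 1 of 6 tested genes rose. This was Aldh18a1, which makes the precursor of proline and ornithine from glutamate, by 0.48 (SE 0.0893, edgeR adjusted p = 0.00149). Aldh18a1 had 33.2 to 40.9 CPM in NT and 47.0 to 61.2 CPM in the guide libraries, with no overlap. Of 9 genes of S-adenosylmethionine and methionine salvage 2 rose. Mtap, which cleaves the methylthioadenosine that Srm and Sms release, rose by 0.25 (SE 0.0634, edgeR adjusted p = 0.00884), from 43.4 to 46.6 CPM in NT to 45.7 to 56.8 CPM with the guides. Ahcy, which hydrolyses S-adenosylhomocysteine, rose by 0.48 (SE 0.141, edgeR adjusted p = 0.0215), a call lost without NT replicate 3 or 4 (adjusted p of up to 0.0802). Its lowest library of all, at 53.0 CPM, was Mycn-gRNA2 replicate 1.

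None of the 4 genes of hypusine, the spermidine-derived residue of the translation factor eIF5A, was called relative to the transcriptome. Eif5a itself, the most abundant of them, stood 0.13 above NT on the log2 scale without passing (SE 0.121, edgeR adjusted p = 0.452), with 681 to 770 CPM in NT, 512 to 871 CPM with Mycn-gRNA2 and 704 to 921 CPM with Mycn-gRNA3. Without Mycn-gRNA2 replicate 1, its lowest library, the value was 0.21 and passed (edgeR adjusted p = 0.0207). Of 6 transport genes 1 rose, Slc18b1, a vesicular polyamine transporter, by 0.42 (SE 0.131, edgeR adjusted p = 0.0274). It was low, at 3.03 to 3.95 CPM in NT and 4.11 to 6.30 CPM with the guides, and its call was lost when NT replicate 1, 3 or 4 or Mycn-gRNA3 replicate 2 was left out (adjusted p of up to 0.105). With Mycn-gRNA3 alone Atp13a3, of a family of polyamine transporters, fell by 0.21 (edgeR adjusted p = 0.0274), a gene named after its value was seen. In the list of paralogs of the members only Sat2 was tested. At −0.44 on the log2 scale Sat2 did not pass (SE 0.158, edgeR adjusted p = 0.0510), at 1.26 to 2.60 CPM. Azin2, a paralog of Azin1 kept in the supply list, was tested there. With both guides it was not called relative to the transcriptome, at −0.22 (SE 0.152, edgeR adjusted p = 0.307).

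**Figure D5:**
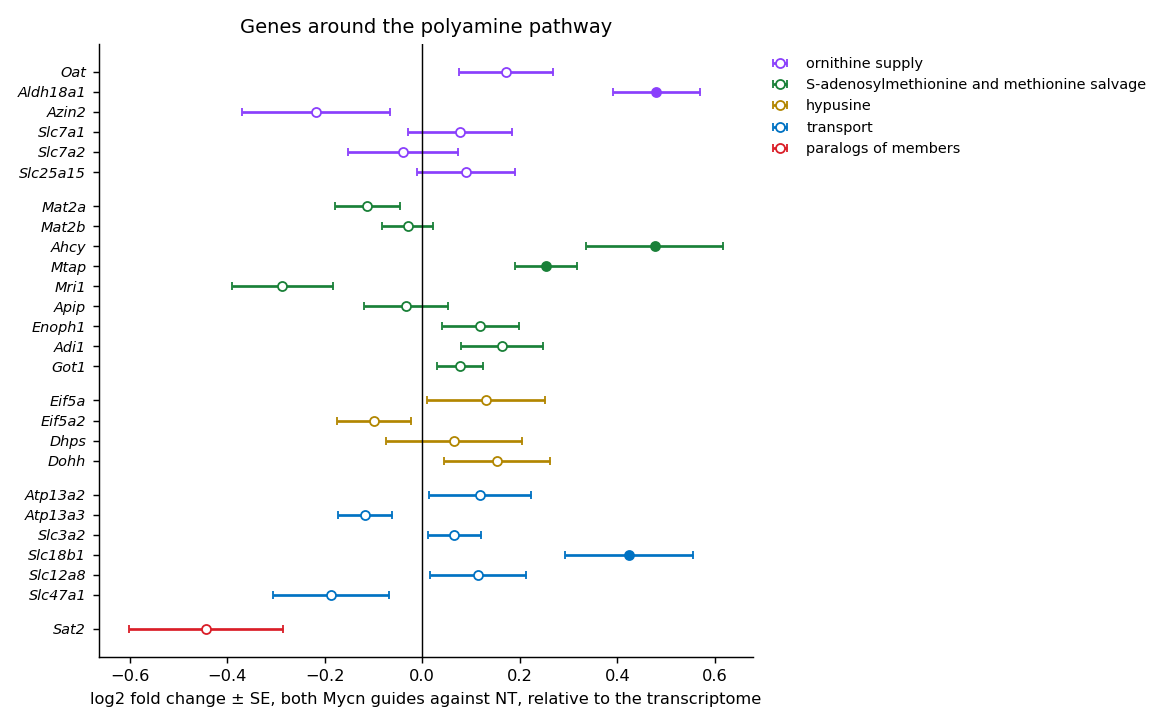
Log2 fold change ± SE of the 26 tested genes around the pathway, both Mycn guides against NT, relative to the transcriptome, colored by list. Filled points passed an adjusted p of 0.05. The 4 filled points, Aldh18a1, Ahcy, Mtap and Slc18b1, lie between 0.25 and 0.48, and the open points scatter on both sides of 0.

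Across the 12 libraries the levels of the synthesis genes went together. Pearson's r of log2 CPM was 0.95 between Odc1 and Srm, 0.96 between Odc1 and Sms, and −0.94 between Odc1 and Sat1, as a description over libraries that differ by group, so r includes the group difference. It was 0.78 for Odc1 with Smox, 0.64 with Oaz2, 0.55 with Paox and −0.04 with Azin1. Among 8949 genes with a mean of at least 10 CPM, the 5 most like Odc1 were Dph3 (0.985), Srsf2 (0.978), Psat1 (0.977), Tpst1 (0.976) and Trmt10a (0.976). Those most like Srm were Ran (0.986), Gemin4 (0.985), Pop1 (0.980), Srsf2 (0.976) and Prdx6 (0.976). Srsf2, an SR splicing factor, was on both lists, and the members closest to the 2 genes, Sms and Odc1, ranked below all of these.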

How the data were processed

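The deposited table holds raw read counts per gene for 24421 genes and 92 ERCC RNAs in 12 libraries. Per the submitters' processing notes, Trim Galore 0.4.0, featureCounts of Subread 1.5.0, build mm10 and edgeR 3.32.1 were used by the authors. Not given in the sources used here are the aligner, the strand setting and the gene annotation's release. The authors' deposited log2 table covers 12042 genes, each value equal to log2(count + 0.5) minus a constant per library (largest departure 5.1e-14), which follows ERCC sizes. It served as an alternative only. The Length column (bases of the gene model, per the file headers) gave RPKM.

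The test was edgeR's (version 4.0.16, R 4.3.3; robust quasi-likelihood, group as the only term, filterByExpr leaving 14497 genes, Benjamini-Hochberg over all of them), with TMM factors or with ERCC totals as library sizes. The procedure was tested on simulated data, with the same spread for every gene and relative to the transcriptome only. The simulation did not cover the ERCC scale or the differences between replicate numbers in these libraries. DESeq2 1.42.0, limma 3.58.1, other scalings, no filter, a replicate block and left-out libraries were alternatives. The 18 replicate pairs within groups differed beyond sampling noise (chi-square per degree of freedom 8.08 to 67.9). Mycn-gRNA2 replicate 1 had the highest values, 42.7, 61.3 and 67.9 with replicates 2, 3 and 4 of its group. No other pair exceeded 28.7. Between Mycn-gRNA2 and Mycn-gRNA3 all 4 same-numbered pairs deviated together across genes (r of 0.17 to 0.65). Differently numbered pairs overlapped that range, at −0.65 to 0.47, and 6 of 8 libraries matched best with their own number. Replicate numbers were taken as pairing the guide groups on these values, from the data and not the labels. A replicate block changed no member call between the guide groups. Members, lists and tests were chosen with earlier results of these data known. The text names all members, Mycn, and up to 4 called genes per list (or the most abundant where none was called). It also names Azin2 and the 5 genes most correlated with Odc1 and Srm. Promoters come from RefSeq (GRCm38.p6).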

Additional observations from a re-analysis of the deposited data

Results flagged for a closer look

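Dixon's test at the 95% level was run on 48 groups of 4 libraries, of which chance flags about 1 in 20, and it picked 2 of them. Azin1 stood at 112.5 CPM in Mycn-gRNA2 replicate 1, far below the other 3 libraries of that group, at 152 to 160 CPM. Smox stood at 14.6 CPM in Mycn-gRNA3 replicate 1, below the other 3 at 16.4 to 16.7 CPM.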

How the results depend on the processing

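DESeq2, no filter, upper-quartile factors, TMM factors over the ERCC RNAs and limma on the deposited log2 values kept every count of called members within 1.5 times. With replicates 1 and 2 only, members called relative to the transcriptome were 1 higher and 0 lower with both guides. They were 0 and 0 with Mycn-gRNA2, and 1 and 0 with Mycn-gRNA3. Of all 14496 genes tested in these fits, 151 were called higher and 27 lower with both guides. The counts were 32 and 1 with Mycn-gRNA2, and 200 and 26 with Mycn-gRNA3. Per ERCC read 3 members were called higher with both guides and 1 with Mycn-gRNA2, beside 7.60% and 2.79% of all genes. Wider pathway genes called with both guides were then 0 higher on either scale. With replicates 3 and 4 only, 9 of them were higher and 4 lower relative to the transcriptome. Over all 14640 genes of that fit, 3324 were called higher and 3061 lower. DESeq2 called 1 wider pathway gene lower, beside 2016 of all 14497 genes. With 1 library left out, the relative counts of wider pathway genes ran from 2 to 8 higher and from 0 to 3 lower. Over all genes they ran from 1627 to 3206 higher and from 1277 to 2951 lower. Members called higher with Mycn-gRNA3 over Mycn-gRNA2 per ERCC read ran from 0 to 2, beside 0 to 1983 of all genes. Counts over all genes moved too. Without Mycn-gRNA2 replicate 1, relative calls were 2951 lower with both guides (against 1878), 2217 higher and 1897 lower with Mycn-gRNA2 (1462 and 1023) and 2803 lower with Mycn-gRNA3 (1772). Those lower with Mycn-gRNA2 were 639 without NT replicate 3, 668 without NT replicate 4 and 590 without Mycn-gRNA2 replicate 3, and those lower with Mycn-gRNA3 1086 without its replicate 3. With only the 2 groups compared they were 971 higher and 578 lower for Mycn-gRNA2 and 2822 lower for Mycn-gRNA3. Per ERCC read, genes higher with Mycn-gRNA2 (3817) were 1813, 2419 and 2231 without NT replicate 1, 3 or 4, and 7849, 2491 and 1897 without its own replicate 2, 3 or 4, and with 1 library left out the genes lower with either guide or both were 36 to 186.

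Values near 0 changed sign. With both guides, Azin1 was 0.011 (relative, replicates 3 and 4), Eif5a −0.078 (relative, replicates 1 and 2), and per ERCC read Sat1 was 0.054 (replicates 1 and 2) and Sat2 0.018 (replicates 3 and 4). With Mycn-gRNA2, Oaz2 was −0.035 (relative) and Azin1 −0.061 (per ERCC read) with replicates 1 and 2, and Azin1 0.022 (relative) with replicates 3 and 4. With Mycn-gRNA3 per ERCC read, Sat1 was −0.14 with replicates 3 and 4. For Mycn-gRNA3 against Mycn-gRNA2, replicates 3 and 4 gave Odc1 0.031 and Azin1 −0.023 relative to the transcriptome, and Sms −0.055 and Azin1 −0.035 per ERCC read. Sat1 was −0.067 with replicates 1 and 2 and −0.0084 with DESeq2. With 1 library left out, the ranges that crossed 0 per ERCC read were −0.12 to 0.011 for Sat1 and −0.20 to 0.12 for Sat2 with both guides, and −0.040 to 0.086 for Sat1 with Mycn-gRNA3. Relative to the transcriptome they were −0.12 to 0.029 for Azin1 with Mycn-gRNA2 and, between the guides, −0.069 to 0.040 for Odc1, −0.045 to 0.15 for Srm, −0.083 to 0.031 for Sms, −0.076 to 0.12 for Sat1 and −0.084 to 0.070 for Azin1. The cause was not tested.

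Between NT and the guides 4 of 8 same-numbered pairs had a correlation of deviations over 0.1 (−0.089 to 0.36), so the numbers were not taken as pairing these groups, although over all group pairs 14 of 24 best matches were with the same number. With a replicate block the ERCC difference stayed at 0.39 with a sign-flip p of 0.125, the smallest that 4 pairs allow. Relative to the transcriptome, 2 wider pathway genes were then called lower, beside 2131 of all 14497 genes. Genes called higher per ERCC read were 7393, against 8177. Per ERCC read the block ended the calls of Azin1 with both guides (adjusted p = 0.0544) and of Oaz2 with Mycn-gRNA2 (adjusted p = 0.0527), and relative to the transcriptome Sat2 passed (adjusted p = 0.0396). Amd1 and Oaz1, at 0 and 39 reads, could not be tested.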
